A study of Mus musculus with 48 samples.

Results

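The 39 genes described here are 36 of the mouse Hox genes and 3 genes of limb identity, Tbx5, Tbx4 and Pitx1, out of 55487 genes listed in the RNA count files. They were chosen by name and not by a cutoff on a measured value, though with earlier results of these data known. All 39 had a row in the counts. The cells came from the limbs of C57BL/6 mice, taken on postnatal day 3 and sorted, and RNA and 3 histone marks were measured in them. Whether fore or hind limbs were used, and whether they were pooled, the labels do not say. There are 3 sorted populations: SSC, the skeletal stem cells; BCSP, progenitors of bone, cartilage and stroma; and pBCSP, the stage before BCSP. All mice carried floxed alleles of Ptip (gene symbol Paxip1), which encodes a partner of H3K4 methyltransferases. Control mice had the Ptipf/f genotype with no Cre (WT here), and the others the genotype Ptipf/f;Col2-Cre (KO here), in which Cre is driven by the Col2a1 promoter of chondrocytes and their precursors, so that deletion is limited to cells that have used it. Each of the 6 groups had 2 RNA libraries, 1 H3K4me3 library, 1 H3K4me1 library and 2 H3K27ac libraries. No label says that the 2 RNA libraries came from separate animals, so p-values measure the spread between these libraries, which may be technical.

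Hox genes encode homeodomain transcription factors and lie in 4 clusters, HoxA to HoxD. Along each cluster the order of the genes follows the order in which they are used along the body and limb axes: members with low numbers act toward the head, and those numbered 9 to 13, here called posterior, pattern the limb from upper arm or thigh to the digits. Limb cells keep part of this code after birth, and skeletal cells of different sites differ in it. Tbx5 is needed to start the forelimb, and Pitx1 acts upstream of Tbx4 in the hindlimb. Active Hox genes carry H3K4me3, a mark of promoters, often in wide blocks, H3K4me1 marks promoter flanks and enhancers, and H3K27ac marks active ones.

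The RNA libraries held 15495915 to 22670899 counts. In SSC KO replicate 2 reads fell on 13987 genes, against 20965 to 23831 in the other 11 libraries, and 18 of the 39 genes had a count of 0 there, against 0 to 3 in each of the others. Paxip1 stood at 7.25 to 14.6 CPM (read counts relative to the TMM-scaled library size) in WT libraries and at 0 to 3.48 in KO libraries. Col2a1 (21136 to 58089 CPM) and Sox9 (1242 to 4338 CPM), genes that define the chondrocyte lineage, were high in all 12 libraries. The summed level of 7 erythroid genes was 22.3 to 260.3 CPM in WT and 1.76 to 31.9 CPM in KO libraries, that of 7 endothelial genes 9.91 to 51.0 and 5.65 to 30.3 CPM, and that of 7 Schwann cell genes 22.6 to 1957 and 4.11 to 514 CPM. That of 5 epidermis genes was 9.92 to 14.0 CPM in WT and 11.9 to 23.7 CPM in KO, of 8 leukocyte genes 2.75 to 16.3 and 7.62 to 33.0 CPM, and of 9 muscle genes 37.1 to 599 and 51.4 to 452 CPM. No gene of these 6 lists was at 0 in all 12 libraries, and their part in the values below was not tested. In sorted bulk samples, fewer cells of a type and less RNA per cell cannot be told apart.

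None of the 36 genes that could be tested passed in any comparison. For KO against WT on average over the populations, the posterior genes and the other Hox genes lay mostly on different sides of 0. This split was not tested, and genes of a cluster measured in the same libraries are not separate replicates. The 3 others, Hoxb3, Hoxc12 and Hoxc13, had too few reads, with at most 0.543 CPM in any library. For KO against WT on average over the 3 populations, 0 of 36 passed at an adjusted p of 0.05 in edgeR's quasi-likelihood test. Of the 17494 tested genes 1.17% did. DESeq2 called 4 of 37 members and 1625 of 18665 genes. Same-numbered libraries of a genotype deviated together across populations (correlations of 0.28 to 0.49), so the 6 libraries of a genotype are not independent in this average. With a replicate block within genotype 0 of the 17494 passed. At an unadjusted p under 0.05, 4 of 36 were higher in KO, where 11.0% of all tested genes were, and 0 were lower, where 8.57% were. The log2 difference was above 0 for 9 of 13 posterior genes (median 0.76), for 2 of 11 central genes, numbered 5 to 8 (median -0.55), and for 2 of 9 anterior genes, numbered 1 to 4 (median -0.54). Over all tested genes 44.7% were above 0, with a median of -0.09. Within SSC, pBCSP and BCSP in turn, the medians were 1.15, 0.82 and 0.86 for posterior genes and -1.13, -0.50 and -0.53 for central genes. For anterior genes they were -1.26, -0.01 and -0.92, with 4 of 9 above 0 in pBCSP. The SSC values include SSC KO replicate 2, where 18 of the 39 genes were at 0. Of the anterior and central genes these were Hoxa4, Hoxa5, Hoxa6, Hoxb2, Hoxb3, Hoxb4, Hoxb5, Hoxb6, Hoxc4, Hoxc5, Hoxd1 and Hoxd3. Of the posterior genes they were Hoxa13, Hoxb9, Hoxc11, Hoxc12, Hoxc13 and Hoxd12. By cluster, on average over the populations, 7 of 10 HoxA genes, 0 of 7 HoxB genes, 2 of 7 HoxC genes and 4 of 9 HoxD genes were above 0.

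**Figure D1:**
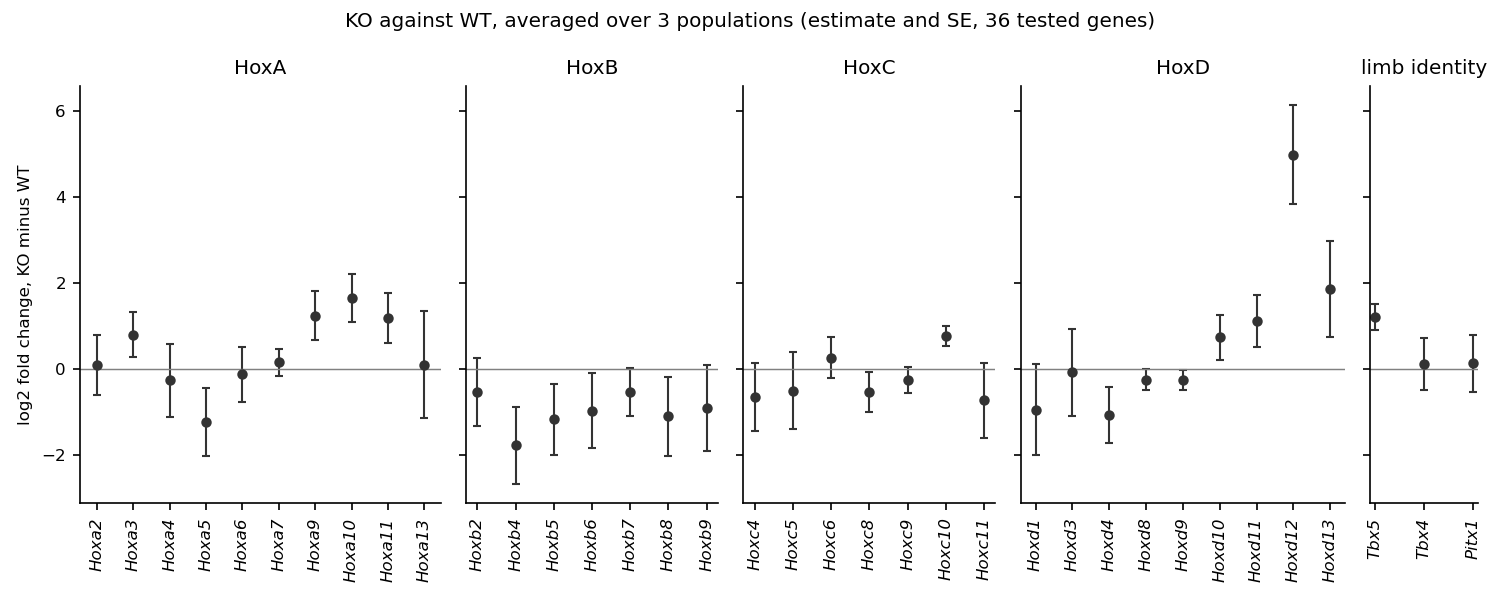
Log2 fold change of KO against WT, averaged over the 3 populations, for the 36 tested genes (y axis, log2; points are edgeR estimates and bars 1 SE), ordered by number within each cluster. Hoxd12 lies highest at 4.98, the HoxB genes all lie below 0, and no gene passed an adjusted p of 0.05.

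Hoxd12, a posterior gene of the digit-forming end of the HoxD cluster (chr2:74675013-74677705, GRCm38), was close to unread in WT and read in 5 of 6 KO libraries. Its counts were 0 and 2 in SSC WT, 0 and 0 in pBCSP WT and 3 and 3 in BCSP WT. In KO they were 14 and 0 in SSC, 34 and 78 in pBCSP and 26 and 33 in BCSP. Both KO libraries lay above both WT libraries in pBCSP, as for 21.2% of tested genes, and in BCSP, as for 24.2%. The groups overlapped in SSC, where the library at 0 was SSC KO replicate 2. In CPM the KO values were 0.970 and 0 in SSC, 2.14 and 3.53 in pBCSP and 1.37 and 2.01 in BCSP, against at most 0.169 in any WT library. In pBCSP, where WT was at 0, the KO mean of 2.84 CPM was at least 19.2-fold higher than the mean of 0.148 CPM that 3 counts in each WT library would give. The fitted average difference was 4.98 ± 1.15 log2 (SE, 6 KO and 6 WT libraries; edgeR, adjusted p = 0.0793), a size that depends on the prior count because of the zeros. It passed in DESeq2 (4.90, adjusted p = 0.000373), as 1625 of 18665 genes did. In edgeR it stood at 5.31 without SSC KO replicate 2. It stood at 2.94 without SSC KO replicate 1, which leaves the library at 0 as the SSC KO group. Over its 19 alternatives the adjusted p ran from 0.000135 to 1.0. Within pBCSP it was 8.70 ± 2.39 log2 (SE, 2 libraries per genotype; edgeR, adjusted p = 0.740), where 0% of the tested genes passed.

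The same gene was marked in more KO than WT peak lists, in libraries separate from the RNA. An H3K4me3 peak lay within 1000 bases of the Hoxd12 start in all 3 KO lists and in SSC WT, and in neither pBCSP WT nor BCSP WT. In SSC WT the 2 peaks nearby were 0.414 and 0.986 kb wide, with the authors' fold enrichments of 2.92 and 3.35. In SSC KO the gene lay inside 1 peak of 29.4 kb with a fold enrichment of 10.1, in BCSP KO the start lay in a peak of 10.3 kb with 8.92, and in pBCSP KO in a peak of 1.66 kb with 4.99. The share of the gene's span under H3K4me3 peaks was 36.6% in SSC WT and 100% in SSC KO, 0% and 52.6% in pBCSP, and 0% and 80.8% in BCSP. H3K4me1 was called within 1000 bases of the start in the 3 KO lists and in no WT list, and within 2500 bases in pBCSP WT as well. These differences were not tested. A start marked by H3K4me3 in all 3 KO lists and at most 1 WT list was found for 0.318% of 27025 genes with a known start, and among the 22 members with one, Hoxd12 was the only such gene. For H3K4me1 that share was 2.73% of all genes and 3 of the 22 members, Hoxb4, Hoxd4 and Hoxd12. Hoxd12 was singled out here after its values were seen. At 2500 bases, pBCSP WT and BCSP WT also had an H3K4me3 peak near this start.

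The promoters of 3 HoxD genes are shown because their H3K4me3 differed: Hoxd13 had a peak at its start in all 6 lists, Hoxd12 mostly in KO lists, and Hoxd4 in none within 1000 bases. Each runs from 250 bases before to 50 bases after the start (RefSeq, GRCm38.p6), with CG pairs in capitals.
Hoxd13, chr2:74667975-74668274, plus strand: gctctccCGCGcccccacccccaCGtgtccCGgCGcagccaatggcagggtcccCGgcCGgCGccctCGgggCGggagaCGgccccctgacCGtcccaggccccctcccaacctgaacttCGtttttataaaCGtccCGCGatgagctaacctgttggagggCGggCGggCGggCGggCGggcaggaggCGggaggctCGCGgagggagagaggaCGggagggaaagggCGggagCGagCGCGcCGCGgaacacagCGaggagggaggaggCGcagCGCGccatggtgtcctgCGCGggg
Hoxd12, chr2:74674763-74675062, plus strand: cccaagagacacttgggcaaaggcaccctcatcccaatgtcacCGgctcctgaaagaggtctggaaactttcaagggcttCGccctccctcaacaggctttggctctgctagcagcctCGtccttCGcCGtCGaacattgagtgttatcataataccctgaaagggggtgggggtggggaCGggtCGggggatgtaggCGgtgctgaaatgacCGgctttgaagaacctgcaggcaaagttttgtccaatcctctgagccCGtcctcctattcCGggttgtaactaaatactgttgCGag
Hoxd4, chr2:74721728-74722027, plus strand: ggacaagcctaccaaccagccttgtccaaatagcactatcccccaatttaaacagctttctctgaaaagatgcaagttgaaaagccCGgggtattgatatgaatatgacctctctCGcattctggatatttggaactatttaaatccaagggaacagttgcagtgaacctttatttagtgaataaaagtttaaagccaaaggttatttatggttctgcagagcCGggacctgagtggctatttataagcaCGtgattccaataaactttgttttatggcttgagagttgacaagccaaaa
They hold 37, 13 and 4 CG pairs, which are counted alike on both strands. The median over 32851 promoters in the RefSeq table is 7, and over the 24 promoters of 22 members 14.5, from 4 to 45. At least 1 CG pair is in 94.6% of all promoters. TATAAA, on either strand, is in 13.6% of all promoters and in 5 of the 24, Hoxd13 and Hoxd4 among them.

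The neighbours of Hoxd12 had low levels too. Hoxd13, the last gene of the cluster and needed for digits, stood at 0 and 0.597 CPM in SSC WT and 4.57 and 0.554 in SSC KO, 0 and 0.918 in pBCSP WT and 0.694 and 1.72 in pBCSP KO, and 0.148 and 1.29 in BCSP WT and 1.26 and 1.83 in BCSP KO. Its values overlapped between genotypes in every population (average difference 1.86 ± 1.11 log2, SE, edgeR, adjusted p = 0.386; 1.14 without SSC KO replicate 1, 3.68 without SSC WT replicate 2 and 3.88 without pBCSP WT replicate 2), and 1 library, SSC KO replicate 1, held the highest. Hoxd11, which acts in forearm and shank, ranged from 0.346 to 4.34 CPM (1.11 ± 0.60 log2, SE, edgeR, adjusted p = 0.336; 0.64 without pBCSP KO replicate 2). It overlaps Hoxd10 in the annotation, so reads of the pair may be mixed; Hoxd10 ranged from 1.38 to 13.4 CPM. In the H3K4me3 lists, the widest HoxD peak in all 3 WT lists was 8.18 to 8.37 kb wide, lay within the span of Hoxd10 and reached only the end of Hoxd11 that overlaps it. It took in both genes and was 16.3 kb in pBCSP KO and 17.1 kb in BCSP KO, and in SSC KO it was the 29.4 kb peak over Hoxd13, Hoxd12, Hoxd11 and Hoxd10 (chr2:74665815-74695216), the widest of all 42399 peaks of that list.

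Hoxd9 and Hoxd8 lie next to this block and had steadier levels. Hoxd9 stood at 10.8 and 11.6 CPM in SSC WT and 9.98 and 11.4 in SSC KO, 17.4 and 19.8 in pBCSP WT and 19.4 and 16.9 in pBCSP KO, and 9.47 and 11.4 in BCSP WT and 4.90 and 7.91 in BCSP KO. Hoxd8 stood at 10.6 and 13.8 CPM in SSC WT and 12.1 and 18.9 in SSC KO, 23.5 and 17.0 in pBCSP WT and 11.1 and 17.6 in pBCSP KO, and 14.3 and 11.9 in BCSP WT and 9.17 and 7.85 in BCSP KO. In BCSP both KO libraries were below both WT libraries for each gene, as 26.4% of tested genes were, and in the other populations the genotypes overlapped. Hoxd1, Hoxd3 and Hoxd4, at the other end of the cluster, reached at most 1.37 CPM.

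**Figure D2:**
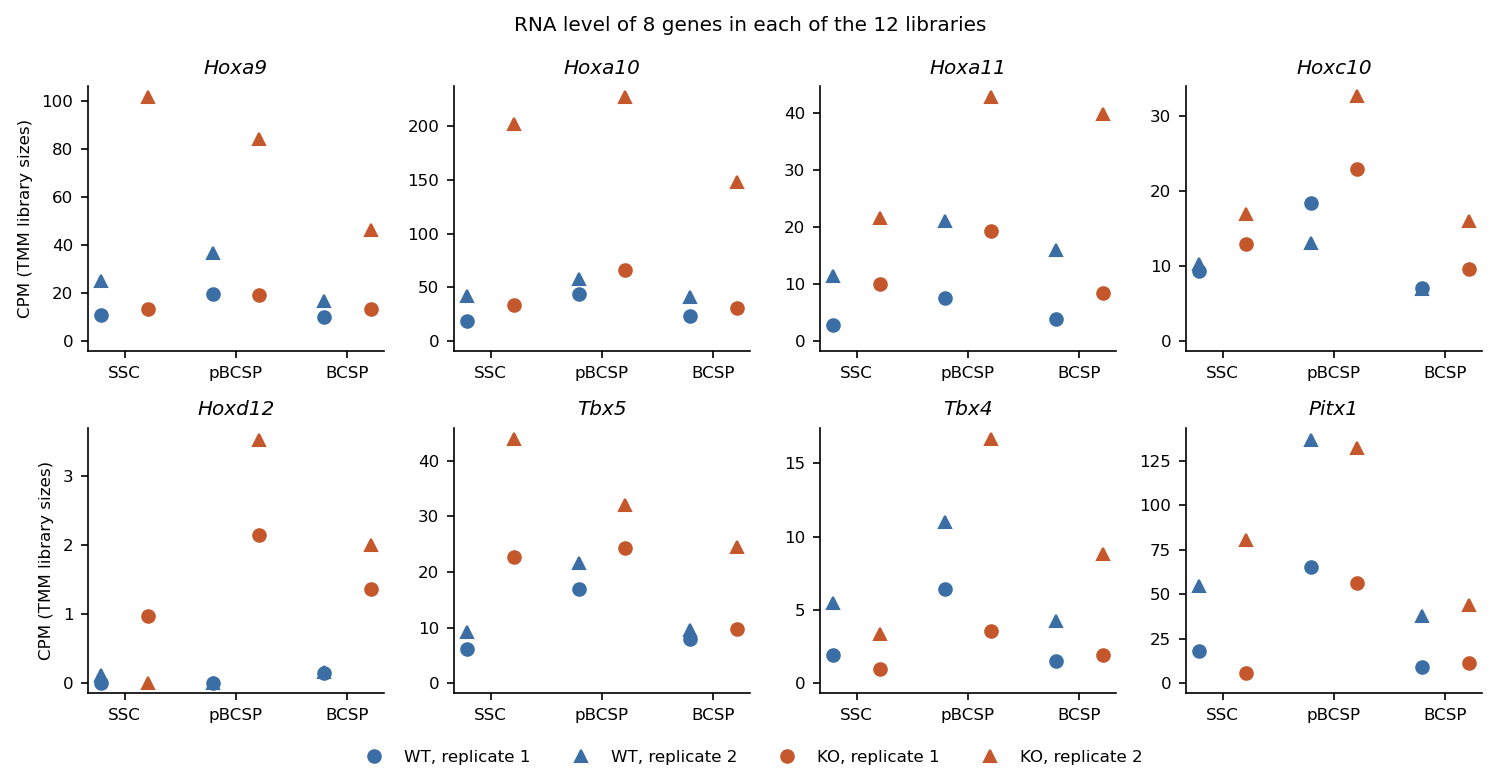
CPM (y axis, TMM library sizes, 1 scale per gene) of 8 genes in the 12 RNA libraries, by population (x axis), genotype (colour) and replicate number (marker). Hoxd12 is at or near 0 in all WT libraries; Hoxa9, Hoxa10, Hoxa11, Tbx4 and Pitx1 are higher in replicate 2 than in replicate 1 of every group.

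In the HoxA cluster the posterior genes Hoxa9, Hoxa10 and Hoxa11, which shape the upper and middle limb, were highest in KO libraries numbered 2. Hoxa9 stood at 10.9 and 25.0 CPM in SSC WT and 13.5 and 102 in SSC KO, 19.7 and 36.6 in pBCSP WT and 19.4 and 84.1 in pBCSP KO, and 10.1 and 16.9 in BCSP WT and 13.3 and 46.2 in BCSP KO. Hoxa10 stood at 18.6 and 41.9 CPM in SSC WT and 33.3 and 202 in SSC KO, 44.3 and 57.6 in pBCSP WT and 66.4 and 227 in pBCSP KO, and 23.1 and 41.2 in BCSP WT and 30.8 and 148 in BCSP KO. Hoxa11 stood at 2.82 and 11.4 CPM in SSC WT and 9.98 and 21.6 in SSC KO, 7.57 and 21.1 in pBCSP WT and 19.2 and 42.7 in pBCSP KO, and 3.85 and 15.9 in BCSP WT and 8.38 and 39.9 in BCSP KO. For all 3 genes the highest libraries were replicate 2 of the 3 KO groups, while KO replicate 1 lay among the WT values or, for Hoxa10 in pBCSP, above them. For Hoxa9 and Hoxa11 the genotypes overlapped in every population, and for Hoxa10 both KO libraries were above both WT libraries in pBCSP only, as 21.2% of tested genes were. The average differences in edgeR were 1.65 ± 0.56 log2 for Hoxa10 (SE, adjusted p = 0.156), 1.24 ± 0.58 for Hoxa9 (SE, adjusted p = 0.276) and 1.18 ± 0.58 for Hoxa11 (SE, adjusted p = 0.296). All 3 passed in edgeR with no filter on low counts, as 1882 of 32547 genes did. Hoxa10 also passed in DESeq2, as 1625 of 18665 genes did. Without SSC KO replicate 2 the average was 1.04 for Hoxa10 and 0.53 for Hoxa9, without pBCSP KO replicate 2 it was 0.76 for Hoxa9, and without BCSP KO replicate 2 it was 0.67 for Hoxa11. With a replicate block within genotype Hoxa10 was at 0.61 and Hoxa9 at 0.25. Over 19 alternatives the adjusted p reached 0.601 for Hoxa10, 1.0 for Hoxa9 and 0.687 for Hoxa11. Within SSC, Hoxa10 was 1.96 ± 0.98 log2 (SE, edgeR, adjusted p = 0.543), and without SSC KO replicate 2 it was 0.14. Together these 3 genes held 14.1% to 30.7% of the member counts in WT libraries, 26.98% to 33.8% in KO libraries numbered 1 and 49.9% to 55.1% in KO libraries numbered 2.

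The longest stretch under H3K4me3 in all 6 lists lay over Hoxa9 and into Hoxa10, 15.7 kb at chr6:52219711-52235382. In SSC WT the peak over this stretch was 35.8 kb and was the widest of 33510 peaks. That peak overlapped the annotated spans of Hoxa3, Hoxa5, Hoxa6, Hoxa7, Hoxa9 and Hoxa10, but not that of Hoxa4. In BCSP KO it was 26.1 kb, again the widest of its list of 38500, and in the other lists it was 15.7 to 25.8 kb, at width ranks 2 to 6. The median width of all peaks was 1.08 kb in SSC WT. The promoters of Hoxa9 and of 1 of the 2 starts of Hoxa10 in RefSeq are shown because both lie in this stretch (GRCm38.p6, same extent as above).
Hoxa9, chr6:52227321-52227620, minus strand: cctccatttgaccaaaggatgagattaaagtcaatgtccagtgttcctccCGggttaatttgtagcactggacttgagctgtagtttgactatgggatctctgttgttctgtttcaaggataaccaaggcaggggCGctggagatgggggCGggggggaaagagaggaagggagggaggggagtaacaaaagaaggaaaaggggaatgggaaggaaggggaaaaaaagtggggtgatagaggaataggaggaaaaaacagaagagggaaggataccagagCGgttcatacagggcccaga
Hoxa10, chr6:52234890-52235189, minus strand: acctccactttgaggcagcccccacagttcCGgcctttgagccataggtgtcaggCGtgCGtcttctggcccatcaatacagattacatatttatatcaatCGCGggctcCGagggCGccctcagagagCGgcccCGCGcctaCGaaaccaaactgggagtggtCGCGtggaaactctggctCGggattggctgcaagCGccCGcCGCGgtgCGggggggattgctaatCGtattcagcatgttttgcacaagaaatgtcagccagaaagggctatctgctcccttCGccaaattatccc
They hold 4 and 21 CG pairs (capitals), and TATAAA or its reverse complement is found in that of Hoxa10. Both starts were marked by H3K4me3 in all 6 lists, as 49.0% of all genes' starts were.

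H3K27ac lay at 0 or 1 of the 22 member starts in each list of the first set, in which it lay at 4.03% to 12.8% of all starts. In the first set of lists Hoxa9 held both of the 2 peaks in SSC WT and in SSC KO, 1 of 3 in pBCSP WT, 2 of 3 in BCSP WT and 1 of 3 in BCSP KO. These peaks lay within chr6:52224106-52226964, and pBCSP KO had none in any cluster. The highest fold enrichment there was 11.5 in SSC WT, 21.3 in SSC KO, 8.60 in pBCSP WT, 15.0 in BCSP WT and 3.79 in BCSP KO. By fold these peaks ranked 3, 2, 2 and 3 in the first 4 of these lists, of 1828 to 6879 peaks, and 5194 of 7951 in BCSP KO. The region did not appear in any of the 6 lists of the second set, which held 137 to 8572 narrow peaks. No H3K27ac peak lay in HoxB or HoxD in the first set, and the share of the 4 clusters covered was 0% to 0.832%.

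Of the other HoxA genes, Hoxa7 stood at 20.0 and 19.9 CPM in SSC WT and 14.7 and 52.2 in SSC KO, 23.7 and 22.9 in pBCSP WT and 14.3 and 23.01 in pBCSP KO, and 17.7 and 22.9 in BCSP WT and 16.02 and 25.3 in BCSP KO. Its genotypes overlapped in all 3 populations, and SSC KO replicate 2 was the highest library. Hoxa5, which acts in the neck and shoulder skeleton, stood at 11.5 and 13.8 CPM in SSC WT and 6.17 and 0 in SSC KO, 7.25 and 8.21 in pBCSP WT and 3.596 and 7.23 in pBCSP KO, and 10.6 and 9.72 in BCSP WT and 4.85 and 4.26 in BCSP KO. Both KO libraries were below both WT libraries in each population for Hoxa5, narrowly so in pBCSP, and for Hoxb4, 2 of 36 members, where 6.53% of tested genes showed this pattern. Neither passed: the average was -1.24 ± 0.79 log2 for Hoxa5 (SE, edgeR, adjusted p = 0.416) and -1.79 ± 0.89 for Hoxb4 (SE, edgeR, adjusted p = 0.303). Hoxa5 moved to -4.17 and Hoxb4 to -3.76 without SSC KO replicate 1, which leaves a group at 0. Hoxa2, Hoxa3, Hoxa4, Hoxa6 and Hoxa13 had means under 5 CPM, and Hoxa2 reached 12.3 CPM in SSC KO replicate 2 against at most 2.31 elsewhere.

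Hoxc10, a posterior gene of trunk and hindlimb levels, had the same order of genotypes in each population. It stood at 9.39 and 10.3 CPM in SSC WT and 12.9 and 16.9 in SSC KO, 18.4 and 13.1 in pBCSP WT and 22.9 and 32.6 in pBCSP KO, and 7.10 and 6.91 in BCSP WT and 9.64 and 16.00 in BCSP KO. Both KO libraries were above both WT libraries in all 3 populations, which held for Hoxc10 and Tbx5 among the 36 members and for 5.32% of tested genes. The average difference was 0.76 ± 0.24 log2 (SE, edgeR, adjusted p = 0.144). It passed in DESeq2 (adjusted p = 0.0335), as 1625 of 18665 genes did. Without SSC KO replicate 1, which leaves 1 library in that group, the average was 0.83. Over 19 alternatives in edgeR or DESeq2 it lay between 0.40 and 0.86, with adjusted p up to 0.947. The longest HoxC stretch under H3K4me3 in all 6 lists overlapped Hoxc10, at 7.36 kb.

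Hoxc6, Hoxc8 and Hoxc9 were the other HoxC genes with a mean of 5 CPM or more. Hoxc6 stood at 10.49 and 4.66 CPM in SSC WT and 4.78 and 11.6 in SSC KO, 6.50 and 2.65 in pBCSP WT and 4.79 and 7.78 in pBCSP KO, and 7.05 and 2.81 in BCSP WT and 3.11 and 8.15 in BCSP KO. Hoxc8 stood at 25.2 and 11.3 CPM in SSC WT and 12.8 and 3.88 in SSC KO, 19.9 and 5.46 in pBCSP WT and 7.002 and 13.7 in pBCSP KO, and 15.0 and 7.08 in BCSP WT and 11.1 and 7.85 in BCSP KO. Hoxc9 stood at 9.85 and 8.72 CPM in SSC WT and 5.89 and 14.0 in SSC KO, 10.4 and 6.81 in pBCSP WT and 8.14 and 7.78 in pBCSP KO, and 7.94 and 8.60 in BCSP WT and 5.32 and 4.38 in BCSP KO. The genotypes overlapped in all 3 populations for Hoxc6 and Hoxc8. For Hoxc9 both KO libraries were below both WT libraries in BCSP only, as 26.4% of tested genes were there. Hoxc4, Hoxc5 and Hoxc11 reached 3.63, 5.198 and 4.55 CPM at most.

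All 7 tested HoxB genes, which serve mainly the trunk and the anterior limb field, had an average below 0, with a median of -0.98 log2 and no gene passing. Hoxb7, the one with a mean over 5 CPM, stood at 18.2 and 6.75 CPM in SSC WT and 5.68 and 16.9 in SSC KO, 12.7 and 1.73 in pBCSP WT and 4.61 and 3.26 in pBCSP KO, and 8.88 and 4.55 in BCSP WT and 6.06 and 2.62 in BCSP KO. Its genotypes overlapped in every population, and it reached 16.9 CPM in SSC KO replicate 2. In that same library Hoxb2, Hoxb3, Hoxb4, Hoxb5, Hoxb6 and Hoxb9 had no read. In SSC KO replicate 1 they stood at 2.43, 0.208, 0.832, 1.73, 6.10 and 3.95 CPM.

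Tbx5, the forelimb gene, stood at 6.11 and 9.13 CPM in SSC WT and 22.7 and 44.0 in SSC KO, 17.0 and 21.7 in pBCSP WT and 24.3 and 32.0 in pBCSP KO, and 7.94 and 9.55 in BCSP WT and 9.75 and 24.4 in BCSP KO. Both KO libraries were above both WT libraries in each population, as for 5.32% of tested genes, by the most in SSC and narrowly in BCSP. The average difference was 1.21 ± 0.30 log2 (SE, edgeR, adjusted p = 0.0866). It passed in DESeq2 (adjusted p = 0.00708), as 1625 of 18665 genes did. With no filter on low counts it passed in edgeR (adjusted p = 0.0195), as 1882 of 32547 genes did. Fits without 1 library, which leave 1 library in a group, gave 0.94 to 1.37. Over 19 alternatives in edgeR or DESeq2 it lay between 0.75 and 1.37, with adjusted p up to 0.591. Within SSC it was 2.13 ± 0.54 log2 (SE, edgeR, adjusted p = 0.524), where 0% of tested genes passed, and DESeq2 gave an adjusted p of 0.0340. In pBCSP WT the gene was 1.34 ± 0.52 log2 above SSC WT (SE, edgeR, adjusted p = 1.0). Peaks of H3K4me3 covered 21.6% to 28.4% of its span, higher in the KO list of each population.

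The hindlimb genes differed by replicate number in every group. Pitx1 stood at 18.3 and 54.6 CPM in SSC WT and 5.48 and 80.3 in SSC KO, 65.1 and 137 in pBCSP WT and 56.3 and 132 in pBCSP KO, and 8.92 and 37.8 in BCSP WT and 11.1 and 43.9 in BCSP KO. Tbx4 stood at 1.902 and 5.49 CPM in SSC WT and 0.970 and 3.33 in SSC KO, 6.41 and 11.02 in pBCSP WT and 3.596 and 16.6 in pBCSP KO, and 1.53 and 4.27 in BCSP WT and 1.897 and 8.82 in BCSP KO. In all 6 groups replicate 2 was above replicate 1 for both genes, and the genotypes overlapped in every population. Average differences were 0.12 ± 0.67 log2 for Pitx1 and 0.11 ± 0.61 for Tbx4 (SE, edgeR, adjusted p = 0.939 and 0.942), and the sign turned in 8 of 19 alternatives for each. Reads of all 3 limb identity genes were found in every library. H3K4me3 covered 74.1% to 85.5% of the Pitx1 span, highest in pBCSP WT.

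The order by replicate number was shared by 6 of the 36 tested members: Hoxa9, Hoxa10, Hoxa11, Tbx4, Tbx5 and Pitx1 were higher in replicate 2 than in replicate 1 in all 6 groups, as 3.06% of tested genes were. The median difference, on log2(CPM + 0.5), was 1.74 for Pitx1, 1.63 for Hoxa11, 1.46 for Hoxa9 and for Hoxa10, 1.35 for Tbx4 and 0.47 for Tbx5. Hoxa13 was higher in 5 of 6 groups (median 1.65). Hoxb6 was lower in replicate 2 in all 6 groups (median -0.79), as 5.83% of tested genes were. Hoxa6, Hoxb4, Hoxb5, Hoxb7, Hoxb8, Hoxb9, Hoxc5 and Hoxc8 were lower in 5 of 6. The median over all tested genes was between -0.39, in SSC KO, and 0. The replicate numbers come from the sample titles, and no label says what a number stands for.

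**Figure D3:**
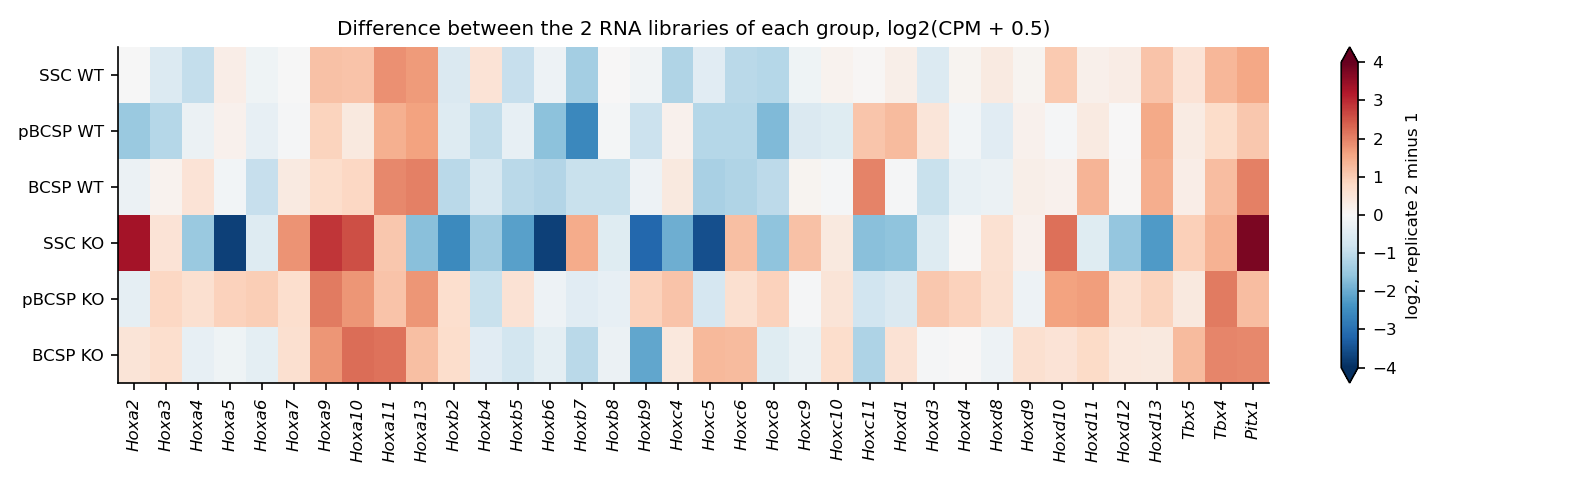
Difference between the 2 RNA libraries of each group (colour, log2 of CPM + 0.5, replicate 2 minus replicate 1) for the 36 tested genes (x axis) in the 6 groups (y axis). Hoxa9, Hoxa10, Hoxa11, Tbx5, Tbx4 and Pitx1 are above 0 in every group, and Hoxb6 is below 0 in every group.

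The populations were also compared within WT, and 0 of 36 members passed in edgeR in any of these 3 comparisons, nor did any other gene (0%). At an unadjusted p under 0.05 the count was 1 of 36 in pBCSP against SSC (Tbx5, higher), where 0.612% of tested genes were higher and 1.27% lower. It was 1 in BCSP against pBCSP (Hoxc10, lower), where 1.5% were higher and 1.11% lower, and 0 in BCSP against SSC, where 2.34% were higher and 1.13% lower. Hoxc10 was -1.17 ± 0.42 log2 (SE, edgeR, adjusted p = 1.0) and Tbx5 -1.14 ± 0.52 (adjusted p = 1.0, edgeR) in BCSP against pBCSP. Hoxd9 stood on the same side, at 0.74 ± 0.40 log2 in pBCSP against SSC and -0.84 ± 0.40 in BCSP against pBCSP (SE, edgeR, adjusted p = 1.0 in both). Hoxb8 was -2.76 ± 1.57 in pBCSP against SSC (edgeR, adjusted p = 1.0). In BCSP against SSC the 3 members with the smallest p were Hoxd4 at -1.43 ± 1.11, Hoxd11 at 1.29 ± 1.07 and Hoxc10 at -0.49 ± 0.42 (SE, edgeR, adjusted p = 1.0 each).

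No member passed the test of whether the genotype effect differed between populations. The smallest p were those of Hoxa6, Tbx5 and Hoxd12 (0.0976, 0.134 and 0.163 unadjusted in edgeR, all with an adjusted p of 1.0), and 1.37% of tested genes were under 0.05. Within a population, 1 of 36 in SSC (Tbx5), 1 in pBCSP (Hoxd12) and 0 in BCSP were higher at an unadjusted p under 0.05, and 0 were lower. Of all tested genes 5.71%, 3.74% and 4.23% were higher, and 3.68%, 2.53% and 2.03% lower. Other members with the smallest p were Hoxa6 in SSC (-2.68 ± 1.38), Hoxc10 (0.82 ± 0.42) and Hoxa3 (1.65 ± 0.94) in pBCSP, and Hoxc10 (0.87 ± 0.42), Hoxd12 (3.36 ± 1.70) and Tbx5 (0.96 ± 0.52) in BCSP, in log2 ± SE. None of them passed in edgeR, with adjusted p of 0.552 to 0.838. Leaving out BCSP KO replicate 2 moved Tbx5 in BCSP to 0.16 and Hoxc10 in BCSP to 0.46. Hoxc10 in pBCSP moved to 0.54 without pBCSP KO replicate 2. Hoxa6 in SSC moved to -1.66 without SSC KO replicate 2. It moved to -6.65 without SSC KO replicate 1, which leaves the library where Hoxa6 had a count of 0. Hoxa3 in pBCSP moved to 1.03 without KO replicate 2, to 0.92 without WT replicate 2 and to 3.195 without WT replicate 1.

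H3K4me3 peaks covered more of the 4 clusters in the KO than in the WT list in SSC and BCSP, but not in pBCSP. Peaks covered 59.1% of the clusters in SSC WT and 68.0% in SSC KO, 47.5% in pBCSP of both genotypes, and 55.1% in BCSP WT and 66.7% in BCSP KO. Over the whole genome the covered length moved too, from 49.4 to 66.5 Mb in SSC, from 41.9 to 38.8 Mb in pBCSP and from 47.5 to 57.7 Mb in BCSP. The KO to WT ratio was thus 1.15 in the clusters and 1.35 overall in SSC, 1.00 and 0.926 in pBCSP, and 1.21 and 1.21 in BCSP. The mean fold enrichment of peaks in the clusters, as the authors give it, was 6.87 in SSC WT and 7.88 in SSC KO, 7.97 and 6.57 in pBCSP, and 8.61 and 9.04 in BCSP. HoxA had the highest cover in every list, 65.4% to 85.8%. Of the bases covered in WT, 96.3% in SSC, 88.3% in pBCSP and 98.8% in BCSP were covered in KO as well, and of those covered in KO, 83.7%, 88.4% and 81.7% were covered in WT. At the 22 members with a known start, 20 or 21 had a peak within 1000 bases, against 49.9% to 53.7% of all genes.

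**Figure D4:**
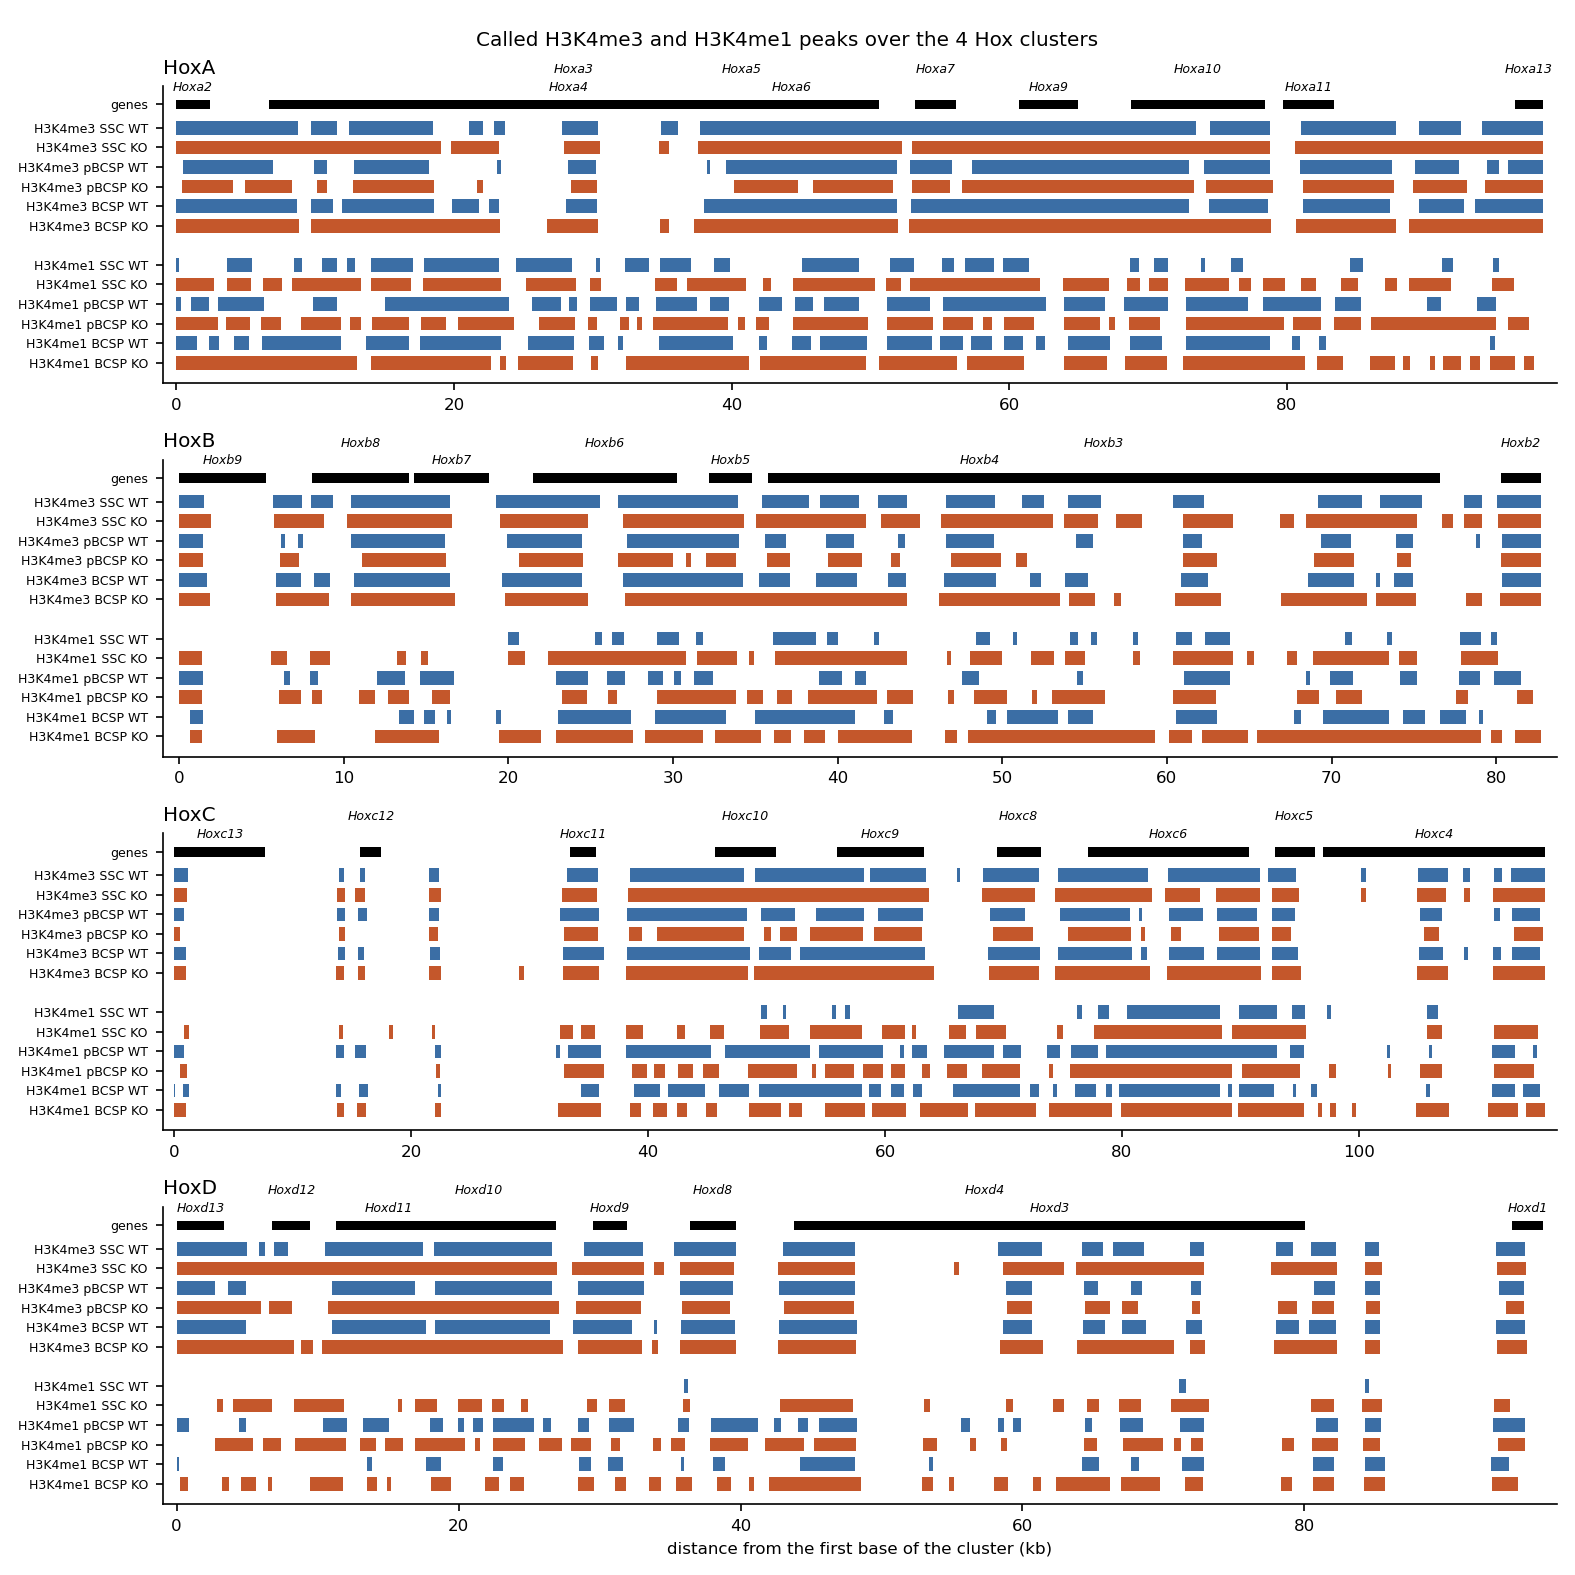
Called peaks of H3K4me3 and H3K4me1 (bars; WT blue, KO orange) over the 4 Hox clusters, with gene spans in black; the x axis is the distance from the first base of the cluster in kb. Around Hoxd12 in HoxD, pBCSP WT and BCSP WT show a gap in H3K4me3 that is partly or wholly filled in the KO lists.

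H3K4me1 cover was 18.4% of the clusters in SSC WT and 46.0% in SSC KO, 43.2% and 49.8% in pBCSP, and 39.03% and 58.8% in BCSP. The covered length of the whole list was larger in KO too, going from 85.5 to 165.0 Mb, from 172.0 to 210.2 Mb and from 141.0 to 216.8 Mb, so that the KO to WT ratio was 2.50 in the clusters against 1.93 overall in SSC, 1.15 against 1.22 in pBCSP and 1.51 against 1.54 in BCSP. Their mean fold enrichment in the clusters was 3.16 and 3.10, 3.27 and 2.89, and 3.39 and 2.94 in WT and KO of the 3 populations. HoxD had its lowest cover in SSC WT, 1.06%, against 38.2% in HoxA, 17.4% in HoxB and 16.7% in HoxC. In SSC KO, HoxD had 31.4%. A peak lay at 6 of 22 member starts in SSC WT (41.3% of all genes had one), at 19 in pBCSP WT and BCSP WT, and at 20, 21 and 21 in SSC KO, pBCSP KO and BCSP KO. In these 5 lists 55.3% to 60.6% of all genes had one. No member start lacked H3K4me1 in all 6 lists, as 35.1% of all genes' starts did. At a -log10 q of 5 or more no member start had a peak, a limit that kept 5 of 75277 peaks in SSC WT and 4592 to 14112 peaks in the other lists.

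**Figure D5:**
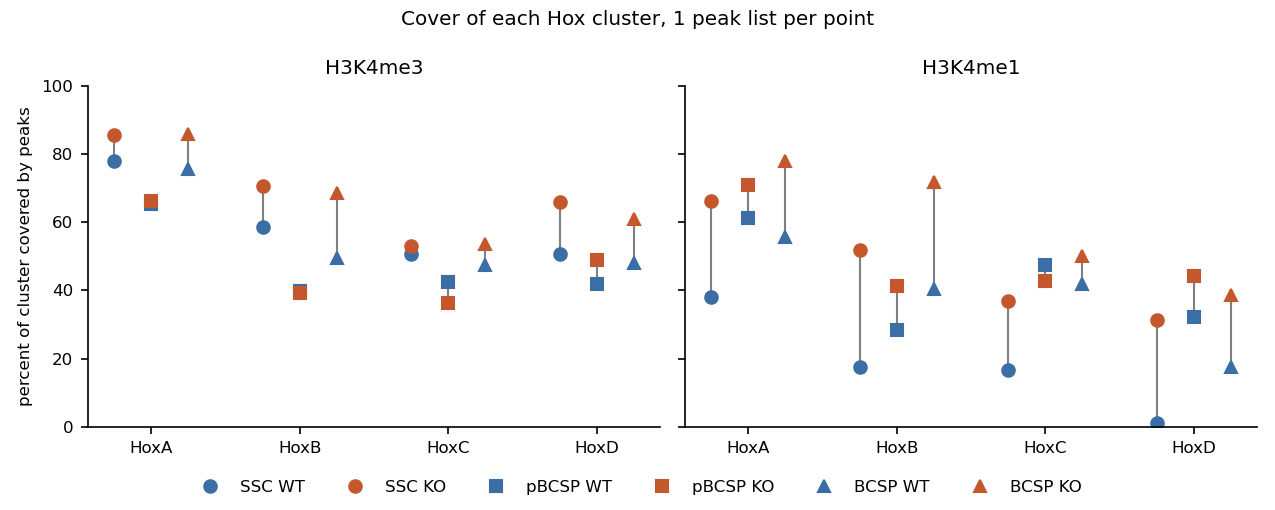
Percent of each Hox cluster covered by called peaks (y axis) of H3K4me3 (left) and H3K4me1 (right), 1 point per peak list, with WT and KO of a population joined by a line. HoxD in SSC WT has the lowest H3K4me1 cover, 1.06%, and HoxA the highest H3K4me3 cover in each list.

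Of 8 tested noncoding RNAs of the Hox clusters, none passed and 1 was above 0 on average, Hoxa11os, which overlaps Hoxa11 on the other strand. It ranged from 1.21 to 23.6 CPM (1.69 ± 0.61 log2, SE, edgeR, adjusted p = 0.182), and since the use of strand in counting is not given, its reads and those of Hoxa11 cannot be told apart. Hoxd3os1, the second by level, ranged from 0.946 to 8.87 CPM (-0.45 ± 0.47, SE, edgeR, adjusted p = 0.624). None of 9 tested genes of the TALE class, whose proteins bind DNA with Hox proteins, passed. Pknox1 and Pknox2, the highest, ranged from 12.2 to 40.9 and from 12.9 to 34.2 CPM (0.05 ± 0.29 and 0.28 ± 0.20 log2, SE, edgeR, adjusted p = 0.943 and 0.458). Of 18 tested limb patterning genes none passed, with 4 above 0. Shox2, needed for the upper limb bones, stood at 14.0 to 56.6 CPM in WT and 23.2 to 221 CPM in KO libraries (2.03 ± 0.45 log2, SE, edgeR, adjusted p = 0.0689), and Tbx15 ranged from 17.0 to 120.7 CPM (-0.87 ± 0.37, SE, edgeR, adjusted p = 0.240).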

How the data were processed

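RNA was poly(A)-selected and chromatin was digested with MNase, per the labels' protocols. The authors deposited whole-number read counts per gene for each of the 12 RNA libraries and 1 peak list per ChIP library, with a score, a fold enrichment (a ratio), -log10 p and -log10 q for each peak, per the file layout. Fold and -log10 q values are the authors' and describe peaks within a list. For H3K27ac, one set of lists has the broad peak layout and the other the narrow one. Tools named in the submitters' processing notes are MACS2 2.2.6, featureCounts 2.0.1, Bowtie2 2.3.5.1, SAMtools 1.9 and Trim Galore 0.6.6, with the build GRCm38. No source used here gives their settings, the annotation or the use of strand. The 12 input libraries were not used here.

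Counts were scaled by TMM, 17494 genes kept by filterByExpr, and 1 mean per group fitted over the 12 libraries in edgeR 4.0.16 (quasi-likelihood test, R 4.3.3), with p adjusted by Benjamini-Hochberg over all tested genes, with a threshold of 0.05. Residual degrees of freedom were 6, and the common biological coefficient of variation 0.605. SE is the size of the fold change over the root of the test's F. A count of 0 allows up to 3 counts, which covers counting error only. DESeq2 1.42.0 and other settings were alternatives. CPM is not corrected for gene length, so a difference in CPM between genes is not a difference in transcript number. Where genes are ranked or summed by CPM or counts, gene length enters too. Of the members, 20 overlap another annotated gene, and without known strand use their reads may be mixed.

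Cover is the share of a cluster, from its first to its last Hox gene, under peaks; starts come from the RefSeq table of GRCm38.p6, the files' build, which held 22 of the 39 members. The members and the gene lists were chosen with earlier results of these data known. By rule, values per library are given for members with a mean of at least 5 CPM and for Tbx4, Tbx5 and Pitx1, and tests for the 3 members with the smallest p in each comparison. From other lists the 2 genes highest by mean CPM are named. Hoxa5, Hoxa9, Hoxa10, Hoxa11, Hoxb4, Hoxd11 and Hoxd13 were added to the tests after their values were seen.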

Additional observations from a re-analysis of the deposited data

How the results depend on the processing

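Each of the 8 counts of members called was 0 in edgeR and 0 in each alternative but the following. On average over populations, DESeq2 called 4 members (Hoxa10, Hoxc10, Hoxd12 and Tbx5), a fit with no filter on low counts 5 (Hoxa9, Hoxa10, Hoxa11, Hoxd12 and Tbx5), and fits without 1 library 0 to 13: 1 without BCSP KO replicate 1 (Tbx5), 1 without SSC KO replicate 2 (Hoxd12) and 13 without SSC KO replicate 1. Without that library, SSC KO rests on replicate 2, with its 18 members at 0, and its spread is assumed to be that of the other groups. Calls in this fit rose over all tested genes too, on average, in SSC and for a difference between populations. Its member counts are therefore not particular to the members. The same fit called 15 members in SSC (0 to 15 over libraries left out) and 4 for a difference between populations (0 to 4). In SSC, DESeq2 called 1 (Tbx5) and 143 of 16772 genes, and no filter 1 (Hoxa10) and 395 of 32547 genes. In pBCSP both called 1 (Hoxd12), with 78 of 16141 genes in DESeq2 and 260 of 32547 with no filter. For BCSP WT against pBCSP WT no filter called 1 (Pitx1) and 107 of 32547 genes. Same-numbered libraries deviated together between populations of a genotype (correlations of 0.28 to 0.49) but not between the genotypes of a population (-0.08 to 0.01). These correlations run over all tested genes and cannot tell whether the numbers pair KO with WT. Among the members, 6 were higher in replicate 2 in every group of both genotypes. With the replicate block, also within genotype, 0 members were called in each comparison. Over all genes the average comparison called 205, and 141 with the replicate block, 0 with it within genotype, 140 with RLE scaling, 1625 in DESeq2, 1882 with no filter, 0 with counts summed over populations or without SSC, and 0 to 6147 without 1 library (6147 without SSC KO replicate 1). Signs turned for Pitx1 (-0.056 with the replicate block, -0.43 with it within genotype, -0.87 to 0.58 without 1 library), for Tbx4 (-0.096, -0.51 and -0.40 to 0.42) and, in BCSP WT against SSC WT, for Hoxd11 (-0.25 to 2.02 without 1 library, below 0 without BCSP WT replicate 2).

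At a -log10 q of at least 5, H3K4me1 lay at 0 member starts in all 6 lists and over 0% to 1.00% of the clusters, H3K4me3 over 42.7% to 66.3%, and H3K27ac at 0 starts in the first BCSP KO list. At 2500 bases the starts with H3K4me1 in SSC WT were 11 in place of 6, and those with H3K27ac 1 in the first SSC WT list, 2 in the first BCSP KO list, and 1 each in the second pBCSP WT and BCSP KO lists. With clusters extended by 10000 bases, H3K4me3 covered 42.6% to 62.2% and H3K4me1 16.8% to 53.1%. Counted by whole peaks, 85.5% to 98.4% of WT H3K4me3 peaks overlapped a KO peak by at least 0.5 of the length of the shorter peak. Low counts limit the 12 members with means under 1 CPM, Hoxd12 among them. For H3K4me3 and H3K4me1, 1 list per group allows no test within a population, and the H3K27ac lists of a group differ in layout.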

Other observations

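Genes that act on Hox transcription were measured in the same libraries. None of 10 tested activators of the Trithorax and MLL type and their partners passed for KO against WT on average in edgeR, and 2 of 10 were above 0. Kdm6b, which removes H3K27 methylation, ranged from 76.7 to 1473 CPM, with the lowest value in SSC KO replicate 2 (-0.11 ± 0.56 log2, SE, edgeR, adjusted p = 0.939). Men1, which encodes menin, a partner of MLL proteins, ranged from 42.8 to 102.5 CPM (0.29 ± 0.22, SE, edgeR, adjusted p = 0.494). Of 14 tested Polycomb genes, which keep Hox genes silent, none passed and 8 were above 0. Rnf2 ranged from 61.9 to 132.8 CPM (-0.45 ± 0.22, SE, edgeR, adjusted p = 0.283). Eed, a core part of the complex that places H3K27 methylation, stood at 39.1 to 63.8 CPM in WT and 23.7 to 36.8 CPM in KO libraries (-0.60 ± 0.17, SE, edgeR, adjusted p = 0.107). Its KO libraries were thus below its WT libraries in each population, as for 6.53% of tested genes. Of 7 tested genes of the retinoic acid pathway and Cdx family none passed, with 1 above 0. Rarg, a retinoic acid receptor, ranged from 95.4 to 260.2 CPM (0.38 ± 0.18, SE, edgeR, adjusted p = 0.283) and Rara, another, from 24.7 to 65.9 CPM (-0.35 ± 0.19, SE, edgeR, adjusted p = 0.327).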
